A study of Drosophila melanogaster with 2 samples.

Results

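The X chromosome carried 552 of the 3033 sites that a GFP-tagged form of the zinc finger protein fu2 occupied reproducibly in Drosophila melanogaster embryos. These sites are the peaks that passed the irreproducible discovery rate (IDR) filter of the authors, which keeps regions ranked alike in both replicates, and that have their summit on X at or below position 22400000 of the dm6 genome. A further X peak lies beyond that limit, and 1904 peaks on the autosomal arms 2L (571), 3L (622) and 3R (711) serve as the comparison. X was thus cut at the limit, while these arms were taken whole, heterochromatin included, unless a limit to euchromatin is named. The list is from chromatin immunoprecipitation followed by sequencing (ChIP-seq) in whole embryos collected 0 to 24 h after laying, male and female together, from a transgenic line (fu2-GFP) that stably expresses fu2 with GFP fused to its C-terminal end, through an insertion that targets the gene prg. The immunoprecipitation used an antibody against GFP, and the chromatin was sonicated to fragments of 200 to 800 bp. There is 1 group with 2 biological replicates, numbered 2 and 3, so the comparisons are between chromosome arms and between peaks and weaker regions of the same embryos, not between conditions.

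fu2 is a name for the product of prg, a protein of the ZAD zinc finger family, whose members bind DNA and of which several sit at promoters and at insulators. In flies, females carry a pair of X chromosomes and males carry 1. In male embryos the male-specific lethal complex, which holds the noncoding RNAs roX1 and roX2 and the acetyltransferase mof, coats the X and raises its transcription, and in females Sxl keeps this complex from forming. In a mixed collection the number of X copies per embryo and the occupancy of each copy cannot be told apart, nor can the contribution of single cell types of the whole embryo.

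As a share of all peaks, X peaks sat at promoters less often and in introns more often than autosomal peaks. At a promoter, here the 500 bp to either side of a transcript start in the annotation, were 294 X peaks (53.3%) against 64.6% of autosomal ones, and in introns were 213 (38.6%) against 24.3%. Per Mb of sequence of each kind, the intronic peaks were denser on X (ratio 1.52, or 1.30 with the autosomal arms limited to euchromatin). The density of promoter peaks did not differ by the test at 500 bp, but was lower on X with promoters drawn at 200 bp. Of protein coding genes, 15.9% on X and 18.2% on the autosomal arms had a promoter peak, a difference called at 500 bp and not at 1000 bp. In number, signal and agreement between replicates, which the IDR filter selects for, X and the autosomal arms differed little or not detectably. The strongest X peaks nonetheless lay at both kinds of place, from the promoters of Ugalt and ph-p to introns of Tlk, norpA and Raf.

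The bases under the summits are shown first, as the plus strand of Release 6 (the assembly of dm6) over the summit and 50 bp to each side of it, from windows free of annotated untranslated regions (UTRs), which 429 of the 552 windows are. The first 3 are the windows of 3 of the strongest X promoter peaks. lncRNA:CR44619 is a long noncoding RNA gene, ph-p encodes the Polycomb group protein Polyhomeotic-proximal, and Atf3 encodes a basic leucine zipper transcription factor.
lncRNA:CR44619, chrX:12751368-12751468: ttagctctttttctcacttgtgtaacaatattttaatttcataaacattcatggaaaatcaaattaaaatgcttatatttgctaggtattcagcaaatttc
ph-p, chrX:2137282-2137382: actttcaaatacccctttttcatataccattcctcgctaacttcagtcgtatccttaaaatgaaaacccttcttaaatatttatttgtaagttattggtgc
Atf3, chrX:1275436-1275536: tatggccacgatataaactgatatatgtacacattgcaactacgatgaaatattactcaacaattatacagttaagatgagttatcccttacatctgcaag

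Introns gave windows of the same kind. The next are from 3 of the 4 strongest intronic peaks, in CG32772, in Tlk, which encodes the Tousled-like kinase, and in norpA, which encodes the phospholipase C of phototransduction.
CG32772, chrX:4910309-4910409: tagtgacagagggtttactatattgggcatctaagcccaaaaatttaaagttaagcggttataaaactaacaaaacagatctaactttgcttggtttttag
Tlk, chrX:3742186-3742286: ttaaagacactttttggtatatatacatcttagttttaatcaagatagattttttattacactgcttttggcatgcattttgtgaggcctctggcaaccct
norpA, chrX:4324949-4325049: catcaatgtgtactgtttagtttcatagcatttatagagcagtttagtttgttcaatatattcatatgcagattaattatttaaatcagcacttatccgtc

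None of these 6 windows holds one of the 8-base words that earlier work on these data had found under the peaks (CAACACTG, CAGCCCTG, CAACCCTG and TTTAAAAA, either strand) or the element TATCGATA. For CAACACTG, TATCGATA and TTTAAAAA the strongest X peak whose window holds the word and no UTR is given next, with that word in capitals as it reads on the plus strand. These were picked after their values were seen. X11L encodes an adaptor of the X11 family, Stt3A a subunit of the oligosaccharyltransferase, and Pits a protein named for its partners Ttk69 and Sin3A.
X11L, chrX:17599489-17599589: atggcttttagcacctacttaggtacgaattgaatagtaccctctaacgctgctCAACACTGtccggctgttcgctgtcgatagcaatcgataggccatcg
Stt3A, chrX:21053257-21053357: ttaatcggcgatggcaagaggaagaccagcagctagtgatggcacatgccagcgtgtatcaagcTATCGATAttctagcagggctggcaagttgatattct
Pits, chrX:12579667-12579767: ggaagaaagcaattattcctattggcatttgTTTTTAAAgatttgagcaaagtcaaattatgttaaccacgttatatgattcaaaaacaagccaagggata

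The strongest X peak, in the promoter of Ugalt (FBgn0024994), the gene of a UDP-galactose transporter, had a signal value of 1341.84, its summit 36 bp upstream of the start (chrX:2703688-2704084). Its signal was 491.89 in replicate 2 and 856.45 in replicate 3. It ranked 3 of 30000 listed regions in each replicate, and signal values from lists called separately are compared here by rank alone. The next was a peak 449 bp from the start of lncRNA:CR44619 (1058.51), which ranked 5 in both replicates, and a second peak 486 bp from a start of the same gene had 649.19 and ranks of 33 and 27. The promoter peak of ph-p (832.4) ranked 14 and 15, and that of Atf3 (751.84) ranked 19 and 22. The first X peak in an intron was the fifth strongest, in CG32772 (750.47), 1257 bp downstream of a start, with ranks of 25 and 19. Such closeness of ranks is what the IDR filter selects for, and others of the leading peaks were ranked less alike, such as the intronic ones of Tlk (70 and 35) and Zw (195 and 100).

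Behind these came the promoter peaks of MFS10 (621.09) and CG17896 (584.2), and then 4 intronic peaks in a row, in Tlk (527.94), CG3726 (483.2), norpA (481.66) and Raf (469.64). Raf encodes the kinase that Ras activates. Among the 25 strongest X peaks, further promoter sites were at bves (451.06), TRAM (444.58), CG3009 (421.27), dnc, the gene of a cAMP phosphodiesterase (408.45), moody, which encodes a receptor of the blood-brain barrier (346.79), CG11151 (322.05), bbx (318.97) and sgg, the gene of the glycogen synthase kinase 3 (311.47). Further intronic sites were at NFAT (383.55), LPCAT (375.19), Zw, the gene of glucose-6-phosphate dehydrogenase, where the nearest start is that of asRNA:CR44512 (334.73), Pits (328.12) and egh (314.31). On X the signal did not differ by the test between locations. Above the X median of 95.5 were 51.0% of promoter peaks, 50.7% of intronic peaks and 34.4% of the 32 intergenic peaks, and none of the 3 differed from the other X peaks by Fisher's exact test (adjusted p of 0.861, 0.861 and 0.300).

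**Figure D1:**
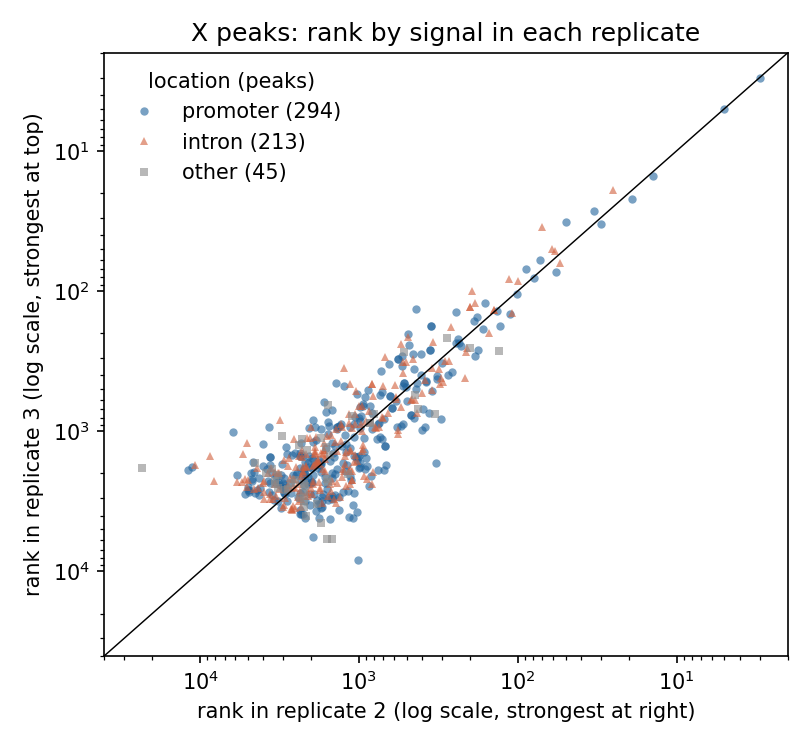
Rank by signal of the 552 X peaks in replicate 2 (horizontal axis) and replicate 3 (vertical axis), both on log scales with the strongest regions at the upper right, coloured by location (294 promoter, 213 intron, 45 other). Points follow the diagonal, loosely among weak peaks, and the outlying point at the left is the peak near Cyp6v1, which ranked 23264 in replicate 2 and 1832 in replicate 3.

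All 552 X peaks overlapped a listed region in both replicates. The IDR peaks rest on these lists, so this overlap and the next shares describe the selection and are no separate test of agreement. Among the 3033 strongest regions of each replicate, 77.7% of X peaks and 78.2% of autosomal peaks had a partner in both (odds ratio 0.975, two-sided Fisher's exact test, p = 0.816). The X peaks placed most differently were near Cyp6v1, a cytochrome P450 gene (signal 8.33 in replicate 2 and 55.42 in replicate 3), at the start of Unc-76, which encodes a kinesin adaptor (46.79 and 21.17, ranks 1019 and 8335), and at the start of CG4199 (11.74 and 56.3, ranks 11320 and 1794). They were weak peaks, with signals of 62.99, 65.11 and 73.02 in the pooled list where the lowest X peak had 62.54. Regions were mostly of equal width, 404 bp in 427 of the 552, and 34 X peaks overlapped another X peak.

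The number of X peaks per length was not distinguishable from that on the autosomal arms. X had 24.6 peaks per Mb and the autosomal arms 22.7, a ratio of 1.08 (95% interval 0.985 to 1.19, two-sided exact binomial test, p = 0.0977). When the autosomal arms were limited to euchromatin (2L to 22 Mb, 3L to 23 Mb and 3R from 4.2 Mb) the ratio lay on the other side of 1. It was then 0.946 (exact binomial test, p = 0.253). Of the 4887 X regions in the pooled list, 660 (13.5%) overlapped an IDR peak, against 12.2% on the autosomal arms (odds ratio 1.13, 95% interval 1.03 to 1.24, Fisher's exact test, p = 0.0115). That small difference was no longer called in the strongest regions of replicate 2 alone (1.07, Fisher's exact test, p = 0.139). Signal differed less still: 48.7% of X peaks and 50.4% of autosomal peaks were above the median of the 4 arms (odds ratio 0.937, 95% interval 0.775 to 1.13, Fisher's exact test, p = 0.530), and 9.96% of X peaks were in the top 10% of the same arms (odds ratio 0.992). In all these tests the regions are the units, so a p-value reflects counting error and says nothing of how embryo collections vary.

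Along X the peaks were unevenly spread, from 12.5 per Mb between 20 and 22 Mb (25 peaks) to 40.5 per Mb between 2 and 4 Mb (81 peaks). The stretch from 6 to 8 Mb followed with 73 peaks. Protein coding genes numbered 90.5 per Mb in the densest stretch and 68 per Mb in the sparsest. The stretch richest in genes, from 14 to 16 Mb with 114 per Mb, had only 16 peaks per Mb. A relation between peaks and gene density was not tested. Between 22 Mb and the limit there was no peak, and no trend along the arm was tested. The innermost peaks inside the limit were at the promoter of bbx, a gene of an HMG-box protein (chrX:21367663-21368008), and 10274 bp from the start of lncRNA:CR44711 (chrX:21593874-21594277, signal 96.08). The peak outside it was 125 bp from the start of lncRNA:CR45010, inside FucTC (chrX:23010645-23011048, signal 75.69).

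Promoter peaks made up a smaller share on X than on any of the autosomal arms compared. The share was 53.3% on X (exact 95% interval 49.0 to 57.5), 63.0% on 2L (58.9 to 67.0), 61.3% on 3L (57.3 to 65.1) and 68.8% on 3R (65.2 to 72.2). Against 2L, 3L and 3R together the odds ratio was 0.624 (95% interval 0.515 to 0.756, Fisher's exact test, p = 5.04e-06 adjusted over 6 locations). The interval for X ends below those of 2L and 3R and overlaps that of 3L at its end.

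Introns took the opposite place, with 213 summits on X and 134, 157 and 172 on 2L, 3L and 3R. The intronic share was 38.6% on X against 23.5%, 25.2% and 24.2% on these arms, and the odds ratio against all of them was 1.96 (95% interval 1.60 to 2.39, Fisher's exact test, adjusted p = 8.06e-10). Intergenic peaks were fewer on X (32, 5.80%, against 9.40%, odds ratio 0.593, Fisher's exact test, adjusted p = 0.0147), but 3R had a like share (5.34%). Summits in UTRs were more common on X (10, 1.81%, against 0.683%, odds ratio 2.68, Fisher's exact test, adjusted p = 0.0338). Per Mb of such sequence neither difference was called. Intergenic sequence makes up less of X than of the whole autosomal arms, and the ratio was 0.903 (6.89 against 7.63 peaks per Mb, 95% interval 0.620 to 1.32, exact binomial test, adjusted p = 0.907). With the autosomal arms limited to euchromatin it was farther from 1, at 0.690 (exact binomial test, adjusted p = 0.181). Among peaks above the median signal it was 0.561 (exact binomial test, adjusted p = 0.313). For UTRs the ratio was 1.97 (0.862 to 4.49, exact binomial test, adjusted p = 0.324). The intergenic and the UTR call on shares were both lost in the strongest regions of replicate 3 alone (adjusted p of 0.0989 and 0.502). A coding exon held 1 X summit, in CG33181 (signal 69.56), named here after its value was seen.

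**Figure D2:**
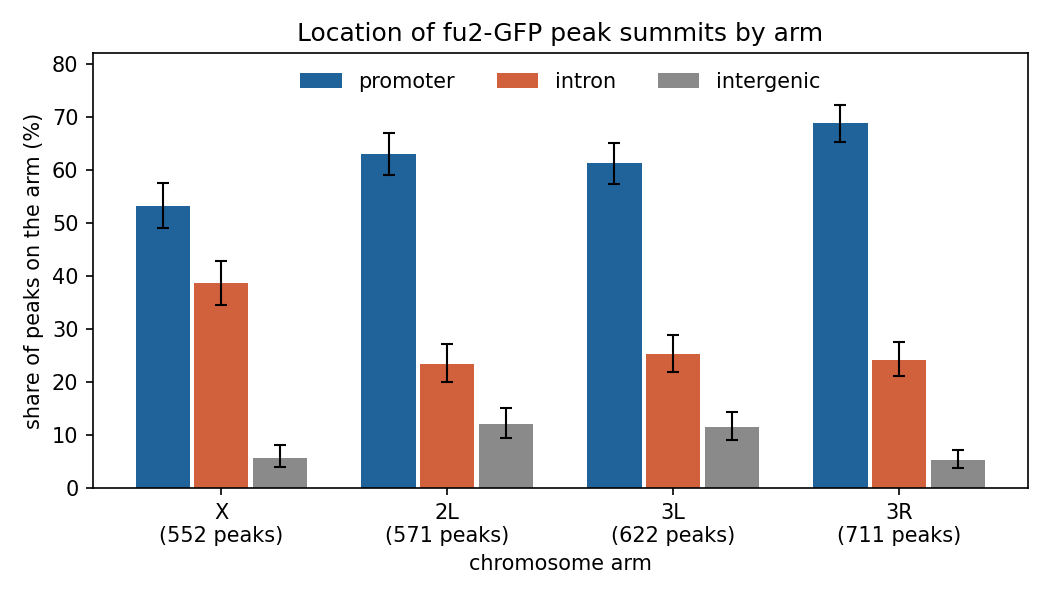
Share of peaks (vertical axis, %) at promoters, in introns and in intergenic sequence on each arm, with exact 95% binomial intervals as error bars. X has the lowest promoter bar (53.3%) and the highest intron bar (38.6%), and its intergenic bar (5.80%) is near that of 3R (5.34%).

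Each replicate alone showed the shift, in its 3033 strongest regions. Of these, X summits at promoters were 52.7% in replicate 2 and 53.4% in replicate 3, which is 53.1% ± 0.484 (SD, n = 2), against 64.5% ± 0.439 on the autosomal arms. In introns they were 39.4% and 38.4%, or 38.9% ± 0.741 (SD, n = 2), against 24.3% ± 0.531. The gaps between X and the autosomal arms exceeded the spread between the replicates, but 2 replicates say little of how embryo collections vary. Autosomal arms also differed among themselves, with promoter shares of IDR peaks from 61.3% on 3L to 68.8% on 3R. In both replicates the promoter and intron differences passed Fisher's exact test, with odds ratios of 0.622 and 0.622 for promoters and 2.06 and 1.89 for introns.

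Weaker listed regions, which are pooled regions without an overlapping IDR peak, had no lower promoter share on X. Of 4227 such regions on X, 30.3% had a promoter summit against 28.3% on the autosomal arms, and 40.9% against 35.3% had an intronic one. The difference between arms changed from weaker regions to peaks, by a ratio of odds ratios of 0.565 for promoters (95% interval 0.460 to 0.694, Wald test of the binomial shares, adjusted p = 3.22e-07) and 1.54 for introns (1.25 to 1.90, adjusted p = 0.000201). For intergenic sequence the ratio was 1.01 (0.677 to 1.52). Weaker regions taken from the top of that list, as many as there are IDR peaks, had promoter shares of 50.8% on X and 49.1% on the autosomal arms and intron shares of 37.5% and 33.2%.

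**Figure D3:**
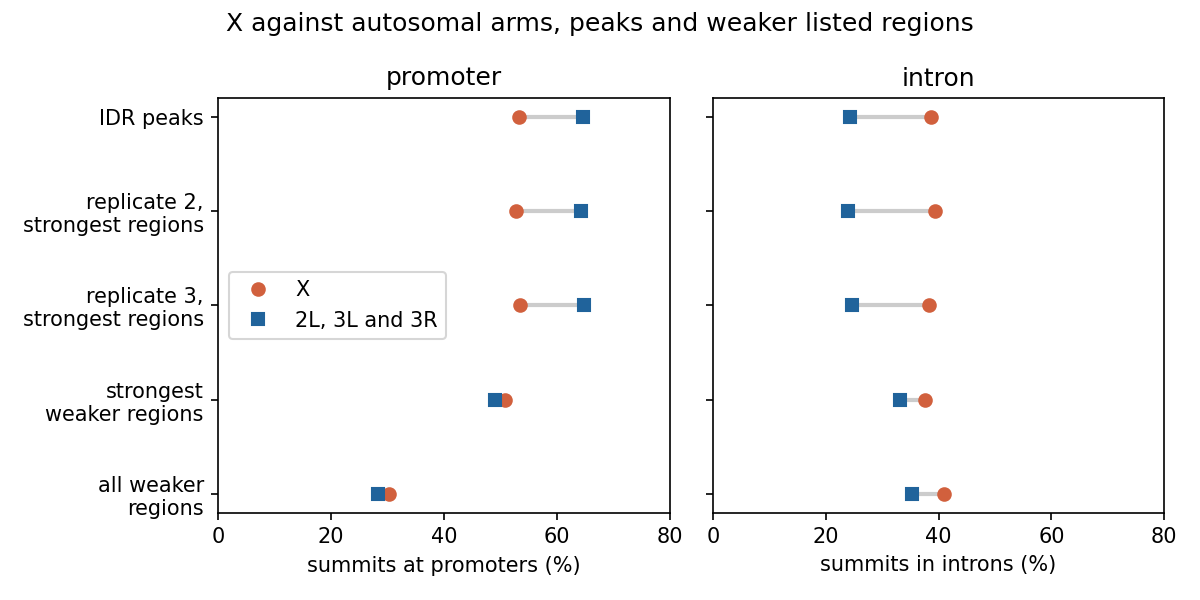
Share of summits at promoters (left) and in introns (right), in %, for X (circles) and for 2L, 3L and 3R together (squares), in the IDR peaks, the strongest regions of each replicate, the strongest weaker regions and all weaker regions. The gap at promoters is seen in the peaks and in both replicates (53.3% against 64.6% in the peaks) and not in the weaker regions (30.3% against 28.3%).

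Introns are a larger part of X, 44.2% of its sequence against 39.2% of the autosomal arms, so peaks were also set against the length of intron. Per Mb of intron X had 21.5 intronic peaks and the autosomal arms 14.1, a ratio of 1.52 (95% interval 1.30 to 1.79, exact binomial test, adjusted p = 4.68e-06). Arm by arm, the density was 21.5 on X (exact Poisson 95% interval 18.7 to 24.6), 15.6 on 2L, 15.1 on 3L and 12.4 on 3R. These autosomal values are for whole arms, while X ends at the limit. With the autosomal arms limited to euchromatin the ratio of X to all of them was smaller, 1.30 (exact binomial test, adjusted p = 0.0113). Densities of single arms within euchromatin are not given here. Per Mb of promoter sequence, by contrast, X had 101.4 peaks and the autosomal arms 108.3, a ratio of 0.936 (0.824 to 1.06) that did not differ from 1 by the test, although with promoters drawn at 200 bp it did (0.800, exact binomial test, adjusted p = 0.0103).

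**Figure D4:**
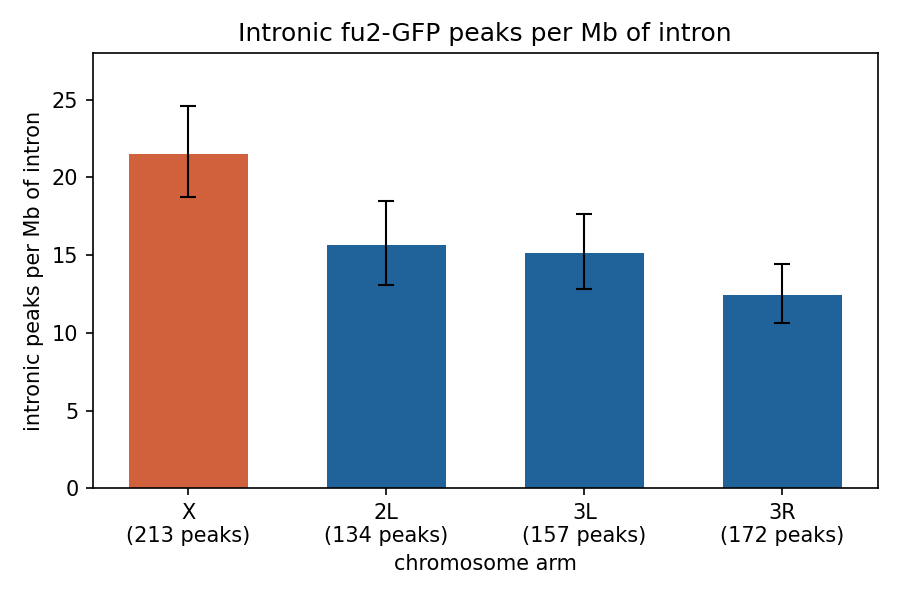
Intronic peaks per Mb of intron (vertical axis) on X and on 2L, 3L and 3R, with exact Poisson 95% intervals as error bars and the number of intronic peaks under each arm. The X bar (21.5) is the highest and 3R (12.4) the lowest. X ends at the limit, while the autosomal arms are whole, heterochromatin included.

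The excess in introns was present near starts and far from them. Up to 2000 bp from a start X had 46.3 intronic peaks per Mb of such intron against 34.5 (ratio 1.34, 1.06 to 1.70, exact binomial test, adjusted p = 0.0153), a call lost when runs of close peaks were counted once (1.23, adjusted p = 0.148). Farther out X had 14.6 against 8.60 (ratio 1.70, 1.35 to 2.13, exact binomial test, adjusted p = 1.84e-05). With the autosomal arms limited to euchromatin, the ratio farther out was smaller, at 1.39 (exact binomial test, adjusted p = 0.0109). The ratio near starts was then 1.31. Over all X peaks, 24.3% were more than 2000 bp from any start, against 16.6% (odds ratio 1.60, 1.28 to 2.02, Fisher's exact test, p = 7.97e-05), which missed the threshold among the peaks of above-median signal (1.37, p = 0.0872). Among intronic peaks themselves the median distance was 2255 bp on X and 1898 bp on the autosomal arms, and the share within 2000 bp was 46.9% against 52.1% (Fisher's exact test, p = 0.246). The X peaks farthest from a start were all intronic: in mamo, a zinc finger gene active in the germ line (42331 bp, signal 111.44), in kirre, a gene of myoblast fusion (36639 bp, 63.53), and in CG43759 (32182 bp, 118.53).

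The 213 intronic peaks lay in introns of 141 genes, several of them holding many. lncRNA:CR44357, which spans 239.347 kb, had 8, and CG1677, CHES-1-like, a forkhead gene, Hr4, a nuclear receptor gene, and Raf had 7 each. NFAT and Tlk had 5. Nested genes share peaks, so these counts are not independent. The longest run of X peaks with at most 2000 bp from summit to summit was in Raf, with 6 peaks over chrX:2296193-2304183, 5 of them in introns and 1 in a UTR. Their signals were 247.49, 469.64, 66.3, 205.67, 153.99 and 266.11 from left to right. The weakest of the 6 ranked 8121 in replicate 2 and 2257 in replicate 3, and the strongest ranked 54 and 63. At ph-p a run of 4 peaks took in 2 promoter peaks (832.4 and 248.29) and 2 intronic ones (176.61 and 82.49).

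Neighbouring summits were more frequent on X. Another summit lay within 2000 bp of 178 X peaks (32.2%) against 26.5% of autosomal ones (odds ratio 1.32, 95% interval 1.07 to 1.62, Fisher's exact test, adjusted p = 0.0191). The call was lost in replicate 2 alone (1.20, Fisher's exact test, adjusted p = 0.186) and with neighbours counted within 1000 bp (1.26, adjusted p = 0.151) or 5000 bp (1.12, adjusted p = 0.490). Grouped into runs, 374 X peaks stood alone, 122 formed 61 pairs, 10 runs had 3 peaks, 5 had 4 and 1 had 6.

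Among promoter peaks, a smaller share on X had starts of several genes nearby. Starts of 2 or more genes lay within 500 bp of 107 of the 294 X promoter summits (36.4%) and of 46.7% of autosomal ones (odds ratio 0.654, 95% interval 0.503 to 0.850, Fisher's exact test, adjusted p = 0.00678), and the difference passed in each replicate alone (odds ratios of 0.602 and 0.593). The share of all promoters with such neighbours was not counted on any arm. X had 96.3 protein coding genes per Mb, against 113.0 on 2L, 97.4 on 3L and 106.6 on 3R, and the part of gene spacing was not tested. Upstream of the nearest start were 81.0% of X and 79.8% of autosomal promoter summits. The median position was -93 bp on X (quartiles -199.5 and -21.25) and -66.5 bp on the autosomal arms (-145 and -15), a difference that was not tested. The nearest start was that of a non-coding gene for 9.24% and 9.09%, and 46.2% and 47.4% of peaks had a GC content above the median of the 4 arms (odds ratio 0.952, 95% interval 0.787 to 1.15). The GC content within 50 bp of the summit had a median of 37.6% at X promoter peaks and 33.7% at X intronic peaks.

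Counted by genes, 343 of 2158 X protein coding genes had a peak within 500 bp of a start (15.9%) against 18.2% of 8817 genes on 2L, 3L and 3R (odds ratio 0.850, 95% interval 0.749 to 0.966, Fisher's exact test, adjusted p = 0.0259). With a distance of 1000 bp the difference missed the threshold (0.878, Fisher's exact test, adjusted p = 0.0717). Non-coding genes on X had a peak in 27 of 576 cases (4.69%), against 3.30% (odds ratio 1.44, 0.927 to 2.24, Fisher's exact test, adjusted p = 0.107).

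The genes with promoter peaks were described by 11 lists, with no test. Against the 15.9% of all X protein coding genes, 12 of the 14 X-linked cytosolic ribosomal protein genes had a promoter peak. The strongest were at RpL22 (206.55), RpL17 (184.76), RpS10b (171.36) and RpS28b (168.49), whose signals were 85.51, 70.85, 66.93 and 76.58 in replicate 2 and 123.11, 117.17, 101.97 and 92.2 in replicate 3. Their summits were 33 to 73 bp from the start. None of the 11 X-linked mitochondrial ribosomal protein genes and none of the 4 proteasome genes had a peak, although 9 of the 11 and all 4 had a listed region below the threshold. Both lists are short. How many of all X protein coding genes have a listed region was not counted, so the counts of listed regions have no baseline. In the strongest regions of either replicate alone, 1 mitochondrial ribosomal protein gene had a peak, beside 11 (replicate 3) and 13 (replicate 2) cytosolic ones. Of all X protein coding genes, 15.5% (replicate 3) and 15.2% (replicate 2) had a promoter peak there.

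Chromatin and transcription regulators had a promoter peak in 7 of 17 cases (41.2%), beside 15.9% of all X protein coding genes. Behind ph-p these included mxc (135.42), which is needed at histone locus bodies, fs(1)h, a bromodomain gene (130.84), and nej, the gene of the acetyltransferase CBP (102.9). Developmental patterning and proneural genes had a promoter peak in 1 of 20 (5%), at sgg. Neuronal genes had one in 2 of 15 (13.3%), near the share of all X protein coding genes. These were dnc and elav, an RNA-binding protein gene of neurons (299.09, with 122.61 in replicate 2 and 177.09 in replicate 3). Intronic peaks are not in these counts. Such peaks lay, among others, in N (143.91), ct, sog (up to 138.54) and hep of the patterning list. They also lay in mnb (up to 281.2) of the neuronal list and in Smr (up to 208.5) of the regulators. Cell cycle genes had a promoter peak in 3 of 13 (23.1%), in a short list beside the same 15.9%. These were Cdk7 (95.47, a peak that also counts for snf), fzr (92.42), an activator of the anaphase promoting complex, and wapl (76.33), a gene of cohesin release. Germ line genes had 2 of 6, at fs(1)Yb (76.39) and fs(1)N (64.49), and 0 in the strongest regions of replicate 2 alone, where these ranked 3797 and 4523. MicroRNA genes had 2 of 58, near the 4.69% of X non-coding genes, at mir-2496 (134.74) and mir-9377 (81.46), whose summits were 482 and 410 bp from the start, so that 0 remained at 200 bp. In the strongest regions of a replicate alone, microRNA genes had 3 in replicate 3 and 1 in replicate 2, and patterning genes 1 and 2. Of all X protein coding genes, 15.5% had one in replicate 3 and 15.2% in replicate 2. With promoters drawn at 200 bp, a peak was left at 3 chromatin and transcription regulators, 2 cell cycle genes and 2 germ line genes. None was left at patterning or neuronal genes, while 12 cytosolic ribosomal protein genes still had one. The share of all X protein coding genes with a peak at 200 bp is not given here, so these counts have no baseline.

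Genes that read or regulate the X had a promoter peak in 2 of 6 cases (X signal elements and Sxl) and in 3 of 9 (dosage compensation), which is 33.3% for each short list beside 15.9% of X and 18.2% of autosomal protein coding genes. The second list also holds the non-coding genes lncRNA:roX1 and lncRNA:roX2, and of all X non-coding genes 4.69% had a peak. On the first of these lists, Sxl (149.76, with 48.61 in replicate 2 and 98.2 in replicate 3) and snf (95.47, the peak it shares with Cdk7), whose product acts in splicing, had the peaks, and Sxl was above the X median of 95.5. With promoters drawn at 200 bp, 1 of the 6 had a peak, a count without a baseline at that distance. The numerator genes sisA, sc, run and upd1 had no listed region within 500 bp of a start, and the share of all X genes with one was not counted. Among 9 dosage compensation genes, of which some lie on autosomes, 3 had a promoter peak. These were JIL-1 on 3L, which encodes a kinase of the X in males (101.11), msl-1 on 2L (63.88) and lncRNA:roX1 on X (62.99). The last of these had 22.46 in replicate 2 (rank 3426) and 40.13 in replicate 3 (rank 3085), near the lowest signal that passed, 62.5. The X gene mof was below the threshold, its strongest region at 42.88, as was lncRNA:roX2 at 30.5. In the strongest regions of replicate 3 alone 1 of the 9 had a peak, and in those of replicate 2 alone 2 had.

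**Figure D5:**
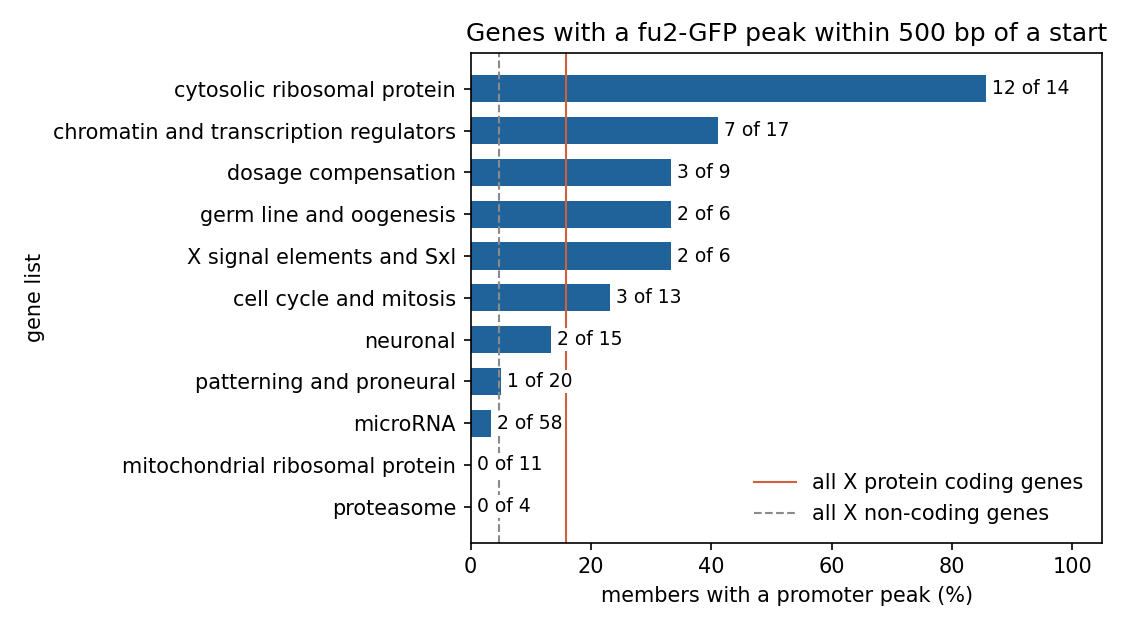
Share of list members with a peak within 500 bp of a transcript start (horizontal axis, %), with members counted beside each bar. Bars range from 0 for proteasome and mitochondrial ribosomal protein genes to 12 of 14 for cytosolic ribosomal protein genes, the solid line marks 15.9% of all X protein coding genes, the dashed line 4.69% of all X non-coding genes, which is the one to set beside the microRNA bar, and the dosage compensation list includes autosomal genes.

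Sequence under the summit was compared over 14 words, on both strands and within 50 bp of the summit. These were TATCGATA (the element of DREF and BEAF-32), CAACACTG, CAGCCCTG, CAACCCTG, TTTAAAAA, motif 7 (CAGCNCTA or CATCNCTA), the core of the M1BP site (GGTCACAC), the repeats GAGAGAGA, which GAF and CLAMP bind, and CACACACA, the TATA box word TATAAA, the initiator word TCAGT, the word AGATAA of the GATA factors, the Pleiohomeotic core GCCAT, and the E-box CAGCTG. Words may overlap one another and were counted separately. No word differed in share between X and the autosomal arms after adjustment over the 14, and 2 did at an unadjusted p below 0.05, by Fisher's exact test. These were the E-box, in 3.80% of X and 6.51% of autosomal peaks, and TTTAAAAA, in 3.26% and 5.88% (Fisher's exact test, adjusted p of 0.126 for each). With 100 bp to each side TTTAAAAA passed (odds ratio 0.554, Fisher's exact test, adjusted p = 0.0141). TATCGATA was in 14 X peaks (2.54%) and 2.78% of autosomal ones, TATAAA in 15.0% and 15.8%, and GAGAGAGA, on which CLAMP acts at the X, in 5 X peaks (0.906%) and 0.525%.

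The word CAACACTG was in 14 X peaks (2.54%) and in 3.99% of autosomal peaks, and in 0.757% of weaker X regions and 0.418% of weaker autosomal regions. For it the arm difference changed between weaker regions and peaks (ratio of odds ratios 0.344, 95% interval 0.169 to 0.704, Wald test of the binomial shares, adjusted p = 0.0312). The same was called for TTTAAAAA (0.446, 0.256 to 0.778, same test on binomial shares, adjusted p = 0.0312), which was in 2.34% of weaker X regions and 1.95% of weaker autosomal ones. Both words were chosen in earlier work because they were common under these peaks, most of them autosomal, so neither call is independent of that choice. Against 3L and 3R alone, without 2L, on which words had been searched for, neither was called (0.432 and 0.492, same test on binomial shares, adjusted p = 0.133 for each). Neither call held in the strongest regions of either replicate alone, in promoter peaks only, among peaks above the median signal or with runs counted once. Both held with euchromatic autosomal arms and with 100 bp to each side (0.460 and 0.499, Wald test of the binomial shares, adjusted p of 0.0364 and 0.00954). At 100 bp the change was also called for AGATAA (1.51, same test on binomial shares, adjusted p = 0.0364). With CAACACTG and TTTAAAAA in so few X peaks, the counts limit what could be detected.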

How the data were processed

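ChIP-seq regions of fu2-GFP from 2 biological replicates of 1 group of embryos were used as deposited. The authors deposited narrowPeak lists with a signal value per region (scale not stated), a −log10 q-value (constant over the IDR peaks) and the summit offset in bp. Per the file manifests, replicate lists were called per alignment with 1 further input, the pooled list was called on both alignments together, and the IDR list rests on these. The aligner, the peak caller, the IDR threshold and the depth are not given in the sources used here, and no control library was analysed here, so intervals cover counting over regions only. Replicate and pooled lists hold 30000 regions each.

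Coordinates were turned to 1-based dm6 positions. The annotation was Ensembl 115 on BDGP 6.54, with transposable elements left out, and bases were read from NCBI's genome of Release 6. Summits were classed in order as promoter, coding exon, UTR, other exon, intron and intergenic. Shares were compared with Fisher's exact test, two-sided, giving odds ratios with Woolf 95% intervals, rates by exact binomial test and ratios of odds ratios by Wald test, with Benjamini-Hochberg adjustment within each family at 0.05. Members and lists were chosen with earlier results of these data known, as were the words. Named were the 25 strongest X peaks, up to 4 list members with the strongest promoter peak, the 3 peaks farthest from a start, the 3 of most different rank, those beside the limit and the longest run. Comparisons with weaker regions for location, rates per location, distances over 2000 bp, words against 3L and 3R alone and runs counted once were added after seeing the data. Alternatives were each replicate's strongest regions, euchromatic arms, the peaks above median signal, other distances, overlaps and windows, GC strata and promoter peaks alone. The work used Python 3.11.15 (matplotlib 3.10.9, statsmodels 0.14.6, scipy 1.17.1, pandas 2.3.3, numpy 2.4.6), and the functions were tested on simulated data.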

Additional observations from a re-analysis of the deposited data

Results flagged for a closer look

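For 4 measures the contrast of IDR peaks with weaker listed regions differed between X and the autosomal arms by a Wald test of the ratio of odds ratios. Promoter location was favoured in peaks over weaker regions on X (odds ratio 2.62) and more so on the autosomal arms (4.63), a ratio of 0.565 (95% interval 0.460 to 0.694, binomial Wald test, adjusted p = 3.22e-07). Intron location had odds ratios of 0.907 on X (0.756 to 1.09) and 0.589 on the autosomal arms, a ratio of 1.54 (binomial Wald test, adjusted p = 0.000201). The word CAACACTG had odds ratios of 3.41 and 9.90, a ratio of 0.344 (binomial Wald test, adjusted p = 0.0312). The word TTTAAAAA had 1.41 (0.844 to 2.34) on X and 3.15, a ratio of 0.446 (binomial Wald test, adjusted p = 0.0312). The promoter and intron differences passed in each replicate's strongest regions alone, and the word differences passed in neither, nor against 3L and 3R without 2L (0.432 and 0.492). The words had been chosen in earlier work on these peaks. The part that other properties of the arms have in these differences was not tested.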

How the results depend on the processing

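Of 440 tested alternatives, 408 kept direction and side of the threshold, where 54 that were called neither before nor after lay on the other side of 1 and are counted among those kept. The promoter and intron shares, their contrast with weaker regions and the intronic peaks per Mb kept their call in every alternative run. The density ratio passed in the strongest regions of replicate 3 alone (1.10, exact binomial test, adjusted p = 0.0477), and leaving out a replicate gave 1.02 to 1.10. The share of listed regions passing IDR missed the threshold among peaks above the median signal (odds ratio 1.11, Fisher's exact test, adjusted p = 0.106), and leaving out a replicate gave 1.07 to 1.13. The share of protein coding genes with a promoter peak missed it at 1000 bp (0.878), and promoter peaks per Mb passed at 200 bp (0.800). List members with a promoter peak on X numbered 32 of 165, of which 58 are microRNA genes. Beside this stand 15.9% of all X protein coding and 4.69% of all X non-coding genes. The count was 15 among peaks above the median signal and 21 at 200 bp, by construction of fewer peaks or a shorter distance. With a window of 100 bp to each side, 1 word passed in place of 0. The cause of the other changes was not tested. The density on the older dm3 build was not run, since its arm lengths were not used here. No paired analysis was possible because there is 1 group. Depth is unknown, so the count error of single peaks, weak ones among them, could not be estimated.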
